A study of Mus musculus with 4 samples.

Results

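The platelet genes examined here were Pf4, Ppbp, Vwf, Itga2b, Gp1bb, Gp9, Gp6, Treml1 and Mpig6b, read beside CD41, the surface protein that Itga2b encodes. They were taken from the deposited matrices by symbol, and all 9 were found, each as 1 of 32285 gene rows. CD41 was 1 of 15 antibody features, of which 13 read surface proteins and 2 were hashtags. The mouse bone marrow cells carried the allelic marker CD45.2 and the receptor Kit, which marks stem and progenitor cells, and were collected 10 weeks after transplantation. RNA and antibody tags of the same cells were read by CITE-seq in 4 libraries, 1 each of control cells and of cells labelled as deleted for Mll3, for Mll4 and for both (Mll3/4). The series title poses the question of whether the chromatin regulators MLL3 (gene Kmt2c) and MLL4 (gene Kmt2d) act redundantly in stem cell and myeloid identity. The age, sex, strain and number of mice, the source of the control cells, and the allele or Cre that made each deletion are not given in the sources used here.

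Megakaryocytes are the marrow cells that shed platelets, and they load a secretory and adhesive machinery before they do so. Pf4 and Ppbp encode chemokines stored in alpha granules, and von Willebrand factor (Vwf) is the adhesive protein of the same granules. Vwf binds the GPIb-IX-V complex, of which Gp1bb and Gp9 are subunits, and Itga2b pairs with Itgb3 to form the fibrinogen receptor. Gp6 is the collagen receptor, which signals through Fcer1g, Treml1 is a receptor of the alpha granule membrane, and Mpig6b is an inhibitory receptor. Itga2b is also known from mast cells and from part of the stem and progenitor cells, and Vwf from endothelium and from platelet-biased stem cells. Kit is carried mainly by immature marrow cells, and the maturity of the sorted megakaryocyte-lineage cells was not measured apart from these genes.

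Each group was 1 library, so no difference between groups could be tested, no p-value is given, and all intervals are 95% intervals that cover counting error only. After filtering, 7146 control, 5860 Mll3-labelled, 5350 Mll4-labelled and 6917 Mll3/4-labelled cells were kept, with median depths of 15754, 16963.5, 5142 and 9965 unique molecules (UMIs) per cell. Expression is given as summed UMIs scaled to counts per 1e+06 (CPM). Kmt2c was at 47.9 CPM in control, 27.2 in the Mll3-labelled, 59.2 in the Mll4-labelled and 34.8 in the Mll3/4-labelled library. Kmt2d was at 25.8, 21.6, 24.99 and 24.7 CPM in the same order so the Mll4-labelled library stood close to control; reads at the 3' end check nothing if the deleted part lies elsewhere, and the libraries are therefore named by label. The Mll4-labelled library also stood apart in Xist, with 0.519 CPM against 990 in control, 955 in the Mll3-labelled and 1839 in the Mll3/4-labelled library, and the part of that difference and of its lower depth in the results was not tested. Between 9 and 24 cell barcodes were shared by each pair of libraries.

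Cells were clustered without the 9 genes and without the antibodies, and clusters were named from marker genes that include none of the 9. Clusters 1 and 11 of 27 carried the megakaryocyte markers, led by Cavin2, Rab27b and Plek, and are called megakaryocyte-like. They held 825 control cells (11.5%), 714 Mll3-labelled cells (12.2%), 271 Mll4-labelled cells (5.07%) and 6 Mll3/4-labelled cells (0.0867%). The Mll3/4-labelled library consisted of B-cell progenitor-like cells in 6832 of 6917 cells, which bounds what could be compared there.

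The genes lie on 6 chromosomes of the mouse build GRCm38 (mm10), and only Ppbp and Pf4 are neighbours. Ppbp occupies chr5:90768518-90770063 and Pf4 chr5:90772435-90773383, both on the plus strand, 2.37 kb apart. Vwf spans chr6:125546774-125686679 and Gp9 chr6:87778072-87779768, both on the plus strand. Itga2b lies at chr11:102453297-102470122 on the minus strand and Gp6 at chr7:4363965-4397744 on the minus strand. Treml1 lies at chr17:48359916-48367176 on the plus strand and Mpig6b at chr17:35062693-35066184 on the minus strand. Gp1bb, at chr16:18620317-18622403 on the minus strand, overlaps Sept5 and Gm49601 on the same strand, so reads of these genes can be confused with it.

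The 250 bases before the annotated start of Pf4, Ppbp and Gp9 are printed because Pf4 and Ppbp are the chemokine neighbours and because Gp9 differed from the others between libraries. They are from RefSeq on GRCm38.p6, run 5' to 3' on the gene's strand, and carry matches to the searched motifs in capitals. The intervals are chr5:90772185-90772434 for Pf4, chr5:90768268-90768517 for Ppbp and chr6:87777820-87778069 for Gp9, all plus strand.
Pf4: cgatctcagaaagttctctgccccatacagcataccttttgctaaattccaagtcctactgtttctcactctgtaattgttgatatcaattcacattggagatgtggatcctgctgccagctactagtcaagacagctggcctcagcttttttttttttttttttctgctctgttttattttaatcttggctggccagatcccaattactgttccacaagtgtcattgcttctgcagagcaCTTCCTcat
Ppbp: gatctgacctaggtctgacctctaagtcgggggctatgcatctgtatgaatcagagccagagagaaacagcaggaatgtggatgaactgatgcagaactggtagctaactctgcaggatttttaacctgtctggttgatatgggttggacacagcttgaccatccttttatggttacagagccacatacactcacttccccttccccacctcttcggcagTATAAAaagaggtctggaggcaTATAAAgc
Gp9: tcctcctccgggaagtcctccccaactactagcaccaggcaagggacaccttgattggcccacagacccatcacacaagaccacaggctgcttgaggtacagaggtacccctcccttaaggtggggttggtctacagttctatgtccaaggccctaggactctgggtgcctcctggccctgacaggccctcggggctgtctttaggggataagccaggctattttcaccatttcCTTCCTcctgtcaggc
The capitals mark the ETS-type string AGGAAG, which reads CTTCCT here because it lies on the other strand, and the TATA string TATAAA. The first string covered bases 9 to 4 before the Pf4 start and bases 16 to 11 before the Gp9 start, and Ppbp held TATAAA at bases 30 to 25 and 8 to 3. Of the 9 genes, 8 had a window in the RefSeq table. Searching both strands, AGGAAG or CGGAAG was present in 4 of those 8 (Pf4, Itga2b, Gp1bb and Gp9), against 39.2% of all 32817 windows of the same length. The GATA-type strings AGATAA or TGATAA were present in 2 of the 8 (Gp6 and Mpig6b), against 16.6% of all windows, and TATAAA was present in 1 of the 8, against 12.4%. With 8 windows these shares describe the genes and draw no contrast, and no expression value was tied to a match.

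In control marrow, the chemokine Pf4 was the gene most closely tied to the megakaryocyte-like class. It reached 2150 CPM there and 23.5 CPM in the next class, the stem and multipotent progenitor-like (HSC/MPP-like) cells, and 97.6% of all its control UMIs came from megakaryocyte-like cells. Its level in megakaryocyte-like cells was 382-fold that of all other control cells. The neighbouring chemokine gene Ppbp was sparse, at 6.57 CPM in control megakaryocyte-like cells, and 89.9% of its UMIs came from them. Vwf was at 60.9 CPM, with 84.8% of its UMIs in these cells and 2.58 CPM in HSC/MPP-like cells. Treml1 was at 62.9 CPM with 91.6% of its UMIs in the class, and Gp1bb at 44.3 CPM with 91.5%. Gp6 gave 4 UMIs and Mpig6b 5 UMIs in the whole control library, of which 4 and 4 were in megakaryocyte-like cells. These 2 were too sparse for any comparison.

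Itga2b and Gp9 were less restricted. Itga2b was at 218 CPM in control megakaryocyte-like cells, but only 70.6% of its UMIs lay there. Basophil/mast-like cells followed with 133 CPM, HSC/MPP-like cells with 30.1 and lymphoid-primed-like cells with 26.6, whereas neutrophil-like and B-cell progenitor-like cells had 0.9595 and 1.26 CPM. Gp9 was at 52.2 CPM in megakaryocyte-like cells with 67.2% of its UMIs, then at 15.2 CPM in basophil/mast-like cells and 5.82 in HSC/MPP-like cells. Throughout, a gene counts as 2-fold higher or lower on the log2(CPM + 1) scale, which understates the change of low genes, while ratios are plain ratios of CPM. All 7 genes with at least 20 UMIs were more than 2-fold higher in control megakaryocyte-like cells than in all other control cells, where 5.25% of all measured genes were; the class was named from genes that move with these, so the count describes the class and does not test it.

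**Figure D1:**
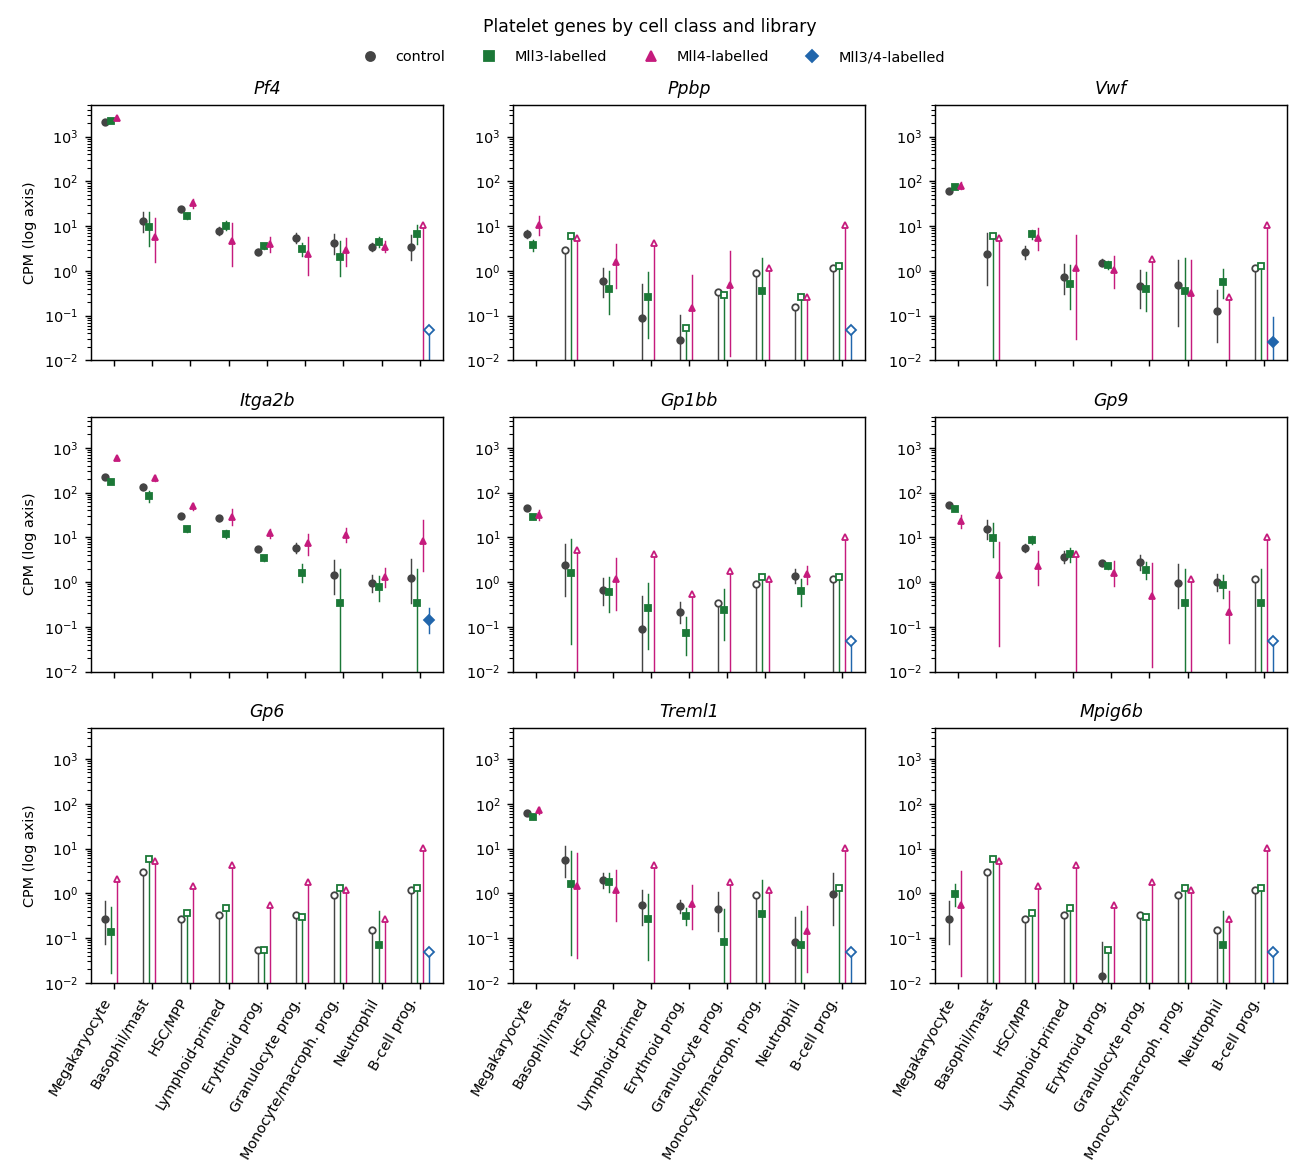
CPM (log axis) of each of the 9 genes by cell class and library, for classes with at least 50 cells. Points are library sums with 95% counting intervals, and open marks show the upper limit where no UMI was found; Pf4 stands at 2150 in control megakaryocyte-like cells and at 23.5 in the next class, whereas Itga2b reaches 133 in basophil/mast-like cells.

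Summed over the cells of each class, the ratio of Pf4 to Itga2b UMIs differed among the classes that share Itga2b. It was 9.84 (9.50 to 10.2) in control megakaryocyte-like cells, 0.782 (0.673 to 0.907) in HSC/MPP-like cells, 0.292 in lymphoid-primed-like cells and 0.0964 (0.0538 to 0.161) in basophil/mast-like cells. Itga2b outside the megakaryocyte-like class was thus not accompanied by Pf4 in the proportion of that class as a whole. Within the class the proportion changed with CD41, as given below. In neutrophil-like cells, where both genes were low, Pf4 at 3.42 CPM and Itga2b at 0.9595 CPM gave a ratio of 3.57 (2.22 to 5.93), also below that of megakaryocyte-like cells. Gp1bb was at 1.38 CPM in neutrophil-like cells, from 33 UMIs, and had none in granulocyte progenitor-like cells; its reads overlap Sept5, and the part of that overlap was not tested.

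Within the control HSC/MPP-like class, Pf4 and Vwf were concentrated in 1 of its 2 clusters. Cluster 2, led by Hlf, Ly6a and Mecom, had 36.4 CPM of Pf4 and 4.06 of Vwf, against 9.19 and 0.935 in cluster 13, whose leading genes include histone genes and Cd34. Itga2b did not follow this split, with 29.7 CPM in cluster 2 and 30.5 in cluster 13. Of the endothelial markers, Cdh5 had 1 UMI, Kdr 8 and Ptprb 0 in control HSC/MPP-like cells, while Emcn was at 21.2 and Egfl7 at 134 CPM.

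The CD41 antibody followed its transcript across cell classes. The median CD41 count in control was 69 in megakaryocyte-like cells, 14 in HSC/MPP-like, 12.5 in basophil/mast-like, 10 in lymphoid-primed-like, 5 in granulocyte progenitor-like, 3.5 in monocyte/macrophage progenitor-like and 2 in erythroid progenitor-like cells. Neutrophil-like and B-cell progenitor-like cells, taken as the antibody background, had a median of 1, and 3.76% and 0.642% of them passed the threshold for CD41-positive cells given next. Over 30 combinations of class and library, Spearman's rho between the Itga2b CPM and the CD41 median was 0.908, and Pearson's r of the log2 values was 0.901; the points share libraries and depth, so these are descriptions. The order of protein and transcript differed for basophil/mast-like cells, which had 133 CPM of Itga2b against 30.1 in HSC/MPP-like cells, while the CD41 medians were 12.5 and 14.

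Cells were called CD41-positive from 8 counts, a threshold set by a 2-component mixture in control. By that call 93.3% of control megakaryocyte-like cells (91.4 to 94.9%) and 72.2% of HSC/MPP-like cells (69.2 to 75.1%) were positive. Megakaryocyte-like cells made up 30.8% and HSC/MPP-like cells 26.3% of the 2498 positive control cells, and the rest came from other classes. Splitting control HSC/MPP-like cells by CD41, Itga2b was at 35.7 CPM in positive and 15.4 in negative cells, a ratio of 2.32 (1.75 to 3.12). Vwf was at 3.37 CPM in positive and 0.531 in negative cells, a ratio of 6.34 whose interval of 1.62 to 54.6 shows how few UMIs it rests on. Pf4 was at 26.2 against 16.5 CPM, a ratio of 1.59 (1.203 to 2.14). In erythroid progenitor-like cells, Itga2b was at 29.8 CPM in the 299 positive and 2.69 in the 1301 negative cells, a ratio of 11.04 (8.99 to 13.6); the positive cells had a median of 15908 UMIs and the negative ones 52093.

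**Figure D2:**
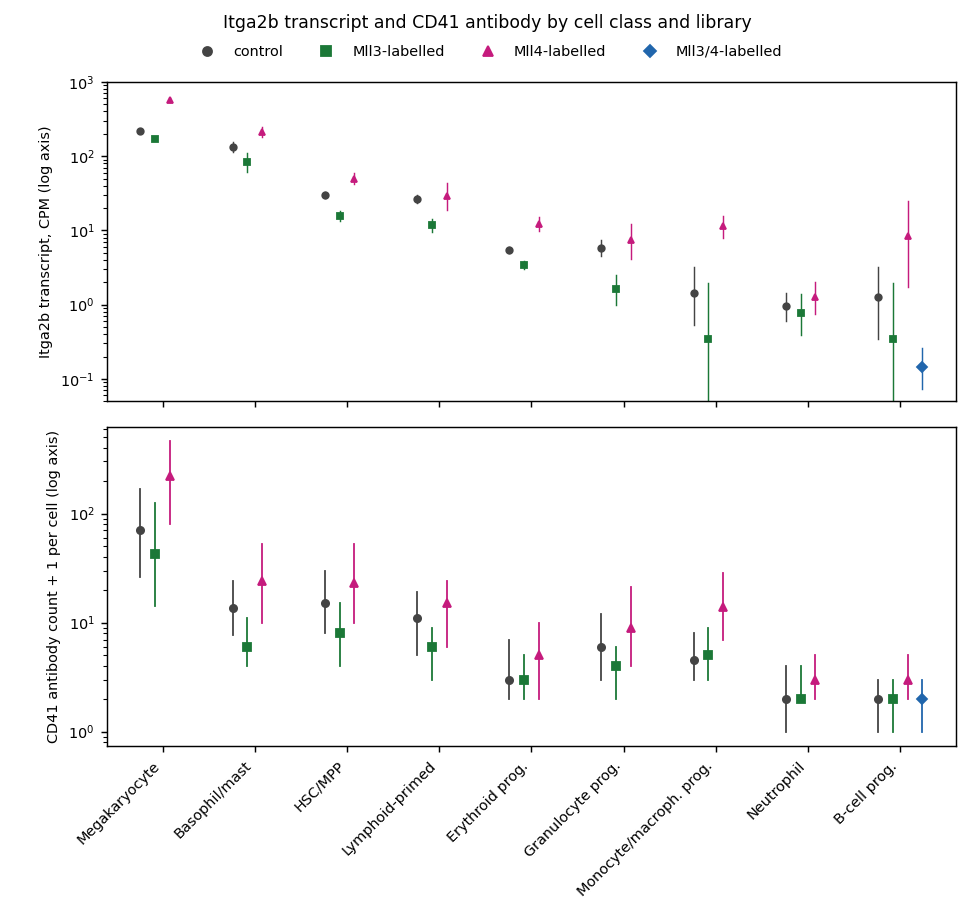
Itga2b in CPM with 95% counting intervals (upper panel) and the median CD41 antibody count plus 1 with quartile bars (lower panel), both on log axes, by cell class and library. Megakaryocyte-like cells are highest in both panels, and the Mll4-labelled library has a CD41 median of 221 there, above the 69 of control and the 42 of Mll3-labelled cells.

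Inside the megakaryocyte-like class, CD41 ordered the cells along the other platelet genes. In control, the 4 quartiles of CD41 had median counts of 13, 43, 109 and 297, and Pf4 was at 106, 311, 1642 and 5289 CPM from the lowest to the highest. The highest quartile had 50.05-fold the Pf4 of the lowest (45.2 to 55.5), and the share of cells with a Pf4 UMI was 26.7, 60.7, 83.0 and 98.1%. Vwf was at 6.61, 14.97, 44.9 and 144 CPM, Treml1 at 10.2, 31.8, 66.8 and 121, and Gp1bb at 11.8, 17.2, 44.3 and 86.9. Itga2b itself had a narrower range, 99.1 to 349 CPM, or 3.52-fold (3.14 to 3.96), and Gp9 one of 22.6 to 67.5 CPM, or 2.99-fold. Pf4 and Itga2b were thus close in the lowest quartile, at 106 and 99.1 CPM, unlike in the class as a whole. Median depth was 17448.5 UMIs in the lowest and 21703 in the highest quartile, and CPM is scaled to depth.

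The same order was present in both single-deletion libraries. In the Mll3-labelled library Pf4 was at 59.1, 266, 1313 and 5696 CPM over quartiles with CD41 medians of 7, 23, 75 and 274, and in the Mll4-labelled library at 212, 1428, 2617 and 4788 over medians of 36, 148, 325.5 and 720. The top quartiles of the 3 libraries were thus closer in Pf4, at 5289, 5696 and 4788 CPM, than the bottom ones, at 106, 59.1 and 212. In the Mll4-labelled library a CD41 median of 36 went with 212 CPM of Pf4, while in control a median of 43 went with 311. At higher CD41 the values were further apart, with 2617 CPM at a median of 325.5 in the Mll4-labelled library. The top quartile of control had 5289 CPM at a lower CD41 median. At every quartile, Itga2b was higher in the Mll4-labelled library (256, 331, 567 and 936 CPM) than in control (99.1, 153, 223 and 349).

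**Figure D3:**
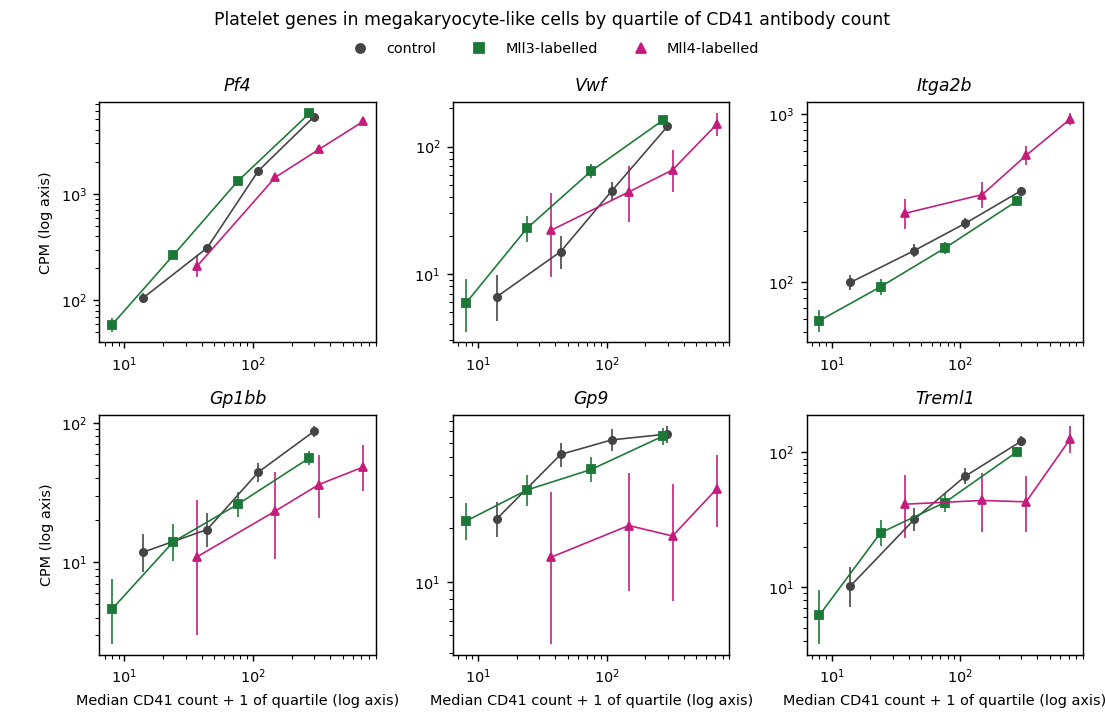
CPM of 6 platelet genes (log axis) against the median CD41 count plus 1 of the 4 CD41 quartiles of megakaryocyte-like cells, in 3 libraries, with 95% counting intervals. In control, Pf4 goes from 106 to 5289 CPM and Itga2b from 99.1 to 349 CPM over the same cells.

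Cells within the class were uneven. The median control megakaryocyte-like cell had 3 UMIs of Pf4, the 90th percentile 123 and the maximum 708, and the 83 cells with the most Pf4 held 58.2% of its UMIs. In the Mll3-labelled library the median was 1, and the 90th percentile 142.4; in the Mll4-labelled library, sequenced less deeply, they were 6 and 51. The median cell had UMIs of 3 of the 9 genes in control, of 3 in the Mll3-labelled and of 2 in the Mll4-labelled library, and 35, 55 and 22 cells had none.

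The genes were found in the same cells to different degrees. After thinning each control cell to 2000 UMIs, Vwf was seen in 15.8% of megakaryocyte-like cells with Pf4 and in 0.456% of those without it, and Treml1 in 18.7 and 4.10%. The contrast was smaller for Itga2b, with 46.2 and 23.9%, and for Gp9, with 12.2 and 7.06%, whose intervals were 9.11 to 15.9% and 4.85 to 9.87%.

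In megakaryocyte-like cells labelled as Mll3-deleted, Pf4 was near control, Vwf was higher and the 5 other measured platelet genes had lower values. Pf4 was at 2246 CPM against 2150 in control, a ratio of 1.04 (1.03 to 1.06), and Vwf at 74.2 against 60.9, a ratio of 1.22 (1.11 to 1.33). Itga2b was at 170 against 218 CPM, a ratio of 0.777 (0.737 to 0.818), and Gp1bb at 28.6 against 44.3, a ratio of 0.646 (0.570 to 0.730). Treml1 was at 49.8 against 62.9 CPM, Gp9 at 43.5 against 52.2, and Ppbp at 3.71 against 6.57, while Gp6 had 2 against 4 UMIs and Mpig6b 14 against 4. Of the 7 measured genes none was 2-fold higher or lower, where 0.432% of all measured genes were higher and 1.04% lower. Their median log2 ratio was -0.33, against -0.05 over all genes, but it was -0.53 in Hashtag1 cells and -0.021 in Hashtag2 cells. Each was set against the same hashtag of control, a pairing that the labels do not give. The log2 ratio of Treml1 turned positive under 1 of 13 alternatives (-0.63 to 0.13).

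The lower Itga2b of the Mll3-labelled library was seen in several other classes and, in most of them, in the protein. Itga2b was at 15.7 CPM in its HSC/MPP-like cells against 30.1 in control, a ratio of 0.522 (0.432 to 0.628), at 11.7 against 26.6 in lymphoid-primed-like, 82.6 against 133 in basophil/mast-like, 3.41 against 5.49 in erythroid progenitor-like and 1.60 against 5.86 in granulocyte progenitor-like cells. The CD41 medians in these classes were 7 against 14, 5 against 10, 5 against 12.5, 2 against 2 and 3 against 5, and in megakaryocyte-like cells 42 against 69. Monocyte/macrophage progenitor-like cells did not follow, with a CD41 median of 4 against 3.5 and 26.6% (19.5 to 34.8%) against 22.2% (16.5 to 28.7%) positive, and Itga2b rested there on 1 UMI against 6. Relative to all surface antibodies of the cell, the median CD41 in megakaryocyte-like cells was 485 against 792 per 10000 counts. Over all kept cells 24.7% were CD41-positive, against 35.0% in control. With CD41 taken as a share of surface counts and its own threshold, the log2 ratio of the shares went from -0.50 to -0.016. That threshold, 14.02 per 10000 counts, lies close to the antibody background, so the calls differ in more than scaling. In megakaryocyte-like cells the CD41 medians were 34 in Hashtag1 and 56.5 in Hashtag2 cells, against 91 and 54 in control, so the values overlapped. Itga2b in Hashtag2 cells was at 194 against 208 CPM. The labels do not say that a hashtag marks the same thing in different libraries. Pf4 followed Itga2b in some classes only, being at 17.2 against 23.5 CPM in HSC/MPP-like cells, a ratio of 0.730 (0.604 to 0.881). In erythroid progenitor-like cells its ratio was 1.37 (1.13 to 1.67), from 249 UMIs in 1680 cells against 183 in 1600. Neutrophil-like cells, which should lack Pf4, had 4.43 against 3.42 CPM, a ratio of 1.29 (0.917 to 1.82). The part of such background in the erythroid value was not tested, so no erythroid rise is read from it. Outside megakaryocyte-like cells as a whole Pf4 was at 5.28 against 5.62 CPM, a ratio of 0.939 (0.845 to 1.04), and Itga2b at 4.78 against 9.76, a ratio of 0.490 (0.443 to 0.540).

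Vwf in HSC/MPP-like cells was higher in the Mll3-labelled library, at 6.58 CPM against 2.58 in control, a ratio of 2.55 (1.67 to 3.95). It was the 1 of 5 measured genes past 2-fold there, where 0.373% of all measured genes were 2-fold higher, and none was 2-fold lower, where 0.928% were. The value rested on cells of 1 hashtag: Vwf was at 2.94 CPM in Hashtag1 cells and 11.9 in Hashtag2 cells of that library, against 2.89 and 1.997 in control. The Mll4-labelled HSC/MPP-like cells were also above control, with 5.41 CPM from 14 UMIs, a ratio of 2.10 (1.04 to 3.99), and there the higher value was in Hashtag1 cells, at 7.44 against 2.19 CPM in Hashtag2 cells. CD41-positive HSC/MPP-like cells of the Mll3-labelled library held 11.6 CPM and negative ones 2.06, a ratio of 5.62 (2.92 to 11.9). Of the endothelial markers in HSC/MPP-like cells of this library, Cdh5 and Ptprb had 0 UMIs and Kdr 1, Emcn was at 19.3 CPM against 21.2 in control and Egfl7 at 120 against 134; their part in the Vwf value was not tested.

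The megakaryocyte-like cells of the Mll4-labelled library had more Itga2b and less Gp9 than control. Itga2b was at 577 CPM against 218, a ratio of 2.64 (2.46 to 2.83), and Gp9 at 22.9 against 52.2, a ratio of 0.438 (0.312 to 0.600). Pf4 was at 2601 against 2150 CPM, a ratio of 1.21 (1.17 to 1.25), Vwf at 80.3 against 60.9, Treml1 at 70.8 against 62.9 and Ppbp at 10.6 against 6.57. Gp1bb was at 32.3 against 44.3 CPM, a ratio of 0.730 (0.549 to 0.956), while Gp6 had 0 UMIs and Mpig6b 1. Of the 7 measured genes 1 was 2-fold higher, where 4.32% of all measured genes were, and 1 was 2-fold lower, where 3.16% were. Their median log2 ratio was 0.27, against 0.14 over all genes, and with another clustering seed the median was -0.11, the log2 ratio of Itga2b 1.11 and that of Gp9 -1.33. Over the 13 alternatives the log2 ratio of Treml1 kept its sign in 11 (-0.17 to 0.55), that of Ppbp in 12 (-0.16 to 1.11) and that of Pf4 in 12 (-0.11 to 0.42). None of these genes is thus firmly above control. The Pf4 to Itga2b ratio was 4.51 (4.21 to 4.83) in this library, against 9.84 in control and 13.2 (12.7 to 13.8) in the Mll3-labelled one.

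**Figure D4:**
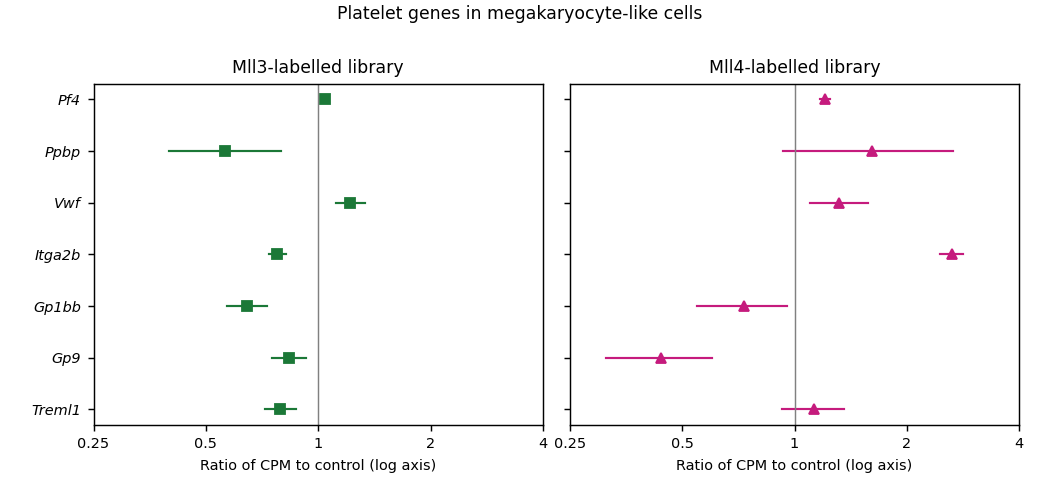
Ratio of CPM to control in megakaryocyte-like cells for the 7 measured platelet genes (log axis) with 95% counting intervals, for the Mll3-labelled and the Mll4-labelled library. Itga2b stands at 0.777 in the first and 2.64 in the second, and Gp9 at 0.834 and 0.438.

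The direction of both genes was also seen outside megakaryocyte-like cells. Itga2b was at 49.8 CPM in HSC/MPP-like cells of the Mll4-labelled library, a ratio to control of 1.66 (1.35 to 2.02), at 213 in basophil/mast-like cells, 1.60 (1.27 to 2.01), at 12.2 in erythroid progenitor-like cells, 2.22 (1.73 to 2.82), and at 11.4 against 1.46 in monocyte/macrophage progenitor-like cells, 7.83 (3.27 to 22.7). In lymphoid-primed-like cells the ratio was 1.09 (0.695 to 1.64), and in neutrophil-like cells 1.34 (0.680 to 2.59). Gp9 was at 2.32 against 5.82 CPM in HSC/MPP-like cells, 0.398 (0.142 to 0.905), at 1.45 against 15.2 in basophil/mast-like cells, 0.0950 (0.00229 to 0.598), and at 0.214 against 1.001 in neutrophil-like cells. These Gp9 values rest on few UMIs, 6 against 79, 1 against 19 and 3 against 24 in that order. The basophil/mast-like pair is under the minimum of 20 UMIs. In HSC/MPP-like cells none of 5 measured genes was 2-fold higher on the log2(CPM + 1) scale and 1, Gp9, was 2-fold lower, where 3.72% and 3.37% of all measured genes were. Clusters 16 and 20 held most neutrophil-like cells of this library and clusters 6 and 7 those of control.

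The CD41 protein was higher with Itga2b in the Mll4-labelled library. Its median in megakaryocyte-like cells was 221 against 69, or 1940 against 792 per 10000 surface counts, and 99.3% of these cells were positive. In HSC/MPP-like cells the medians were 22 against 14, in basophil/mast-like cells 23 against 12.5, in granulocyte progenitor-like cells 8 against 5 and in erythroid progenitor-like cells 4 against 2. In monocyte/macrophage progenitor-like cells they were 13 against 3.5, with 66.1% against 22.2% positive. The antibody background was also higher, with medians of 2 against 1 in neutrophil-like and in B-cell progenitor-like cells, and its part was not tested. Over all kept cells 33.2% were positive against 35.0% in control, and over all deposited barcodes 36.0% against 32.9%, so no direction can be read from the overall share. Of the positive cells 15.1% were megakaryocyte-like and 18.5% monocyte/macrophage progenitor-like, against 30.8% and 1.72% in control.

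Shares of cells with a UMI depend on depth and were compared after thinning every cell to 2000 UMIs, which left out 1 control, 1 Mll3-labelled and 3 Mll4-labelled megakaryocyte-like cells. Itga2b was then seen in 34.3% of control, 27.1% of Mll3-labelled and 59.7% of Mll4-labelled megakaryocyte-like cells, whereas unthinned shares were 85.7, 80.5 and 84.5%. Pf4 was seen in 46.7, 43.6 and 60.8% after thinning and in 67.2, 61.5 and 70.5% before. Gp9 was seen in 9.47, 7.43 and 3.36% after thinning and in 51.4, 47.5 and 13.7% before. Neutrophil-like cells, which should lack these genes, showed Pf4 in 0.628, 0.699 and 0.867% and Itga2b in 0.171, 0.1998 and 0.301% of thinned cells, at median depths of 13536.5, 14037 and 4901.5 UMIs against 17082, 19286.5 and 6194 in megakaryocyte-like cells. The higher Itga2b of the Mll4-labelled library was thus visible in the thinned and not in the unthinned shares.

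Sums over all kept cells mix the level within cells with the share of megakaryocyte-like cells. Pf4 was at 214 CPM in control, 250 in the Mll3-labelled and 148 in the Mll4-labelled library, Itga2b at 30.02, 22.8 and 45.6, Vwf at 6.97, 9.43 and 5.16, and Gp9 at 7.54, 7.13 and 1.92. In the Mll3-labelled library none of the 7 measured genes was 2-fold higher or lower than control, where 0.199% of all measured genes were higher and 0.467% lower. In the Mll4-labelled library none was 2-fold higher and 1, Gp9, was 2-fold lower, where 5.74% and 2.91% of all measured genes were.

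In the Mll3/4-labelled library the platelet genes were nearly absent, as were the cells that carry them. Pf4 was at 0.489 CPM, from 38 UMIs in 6 of 6917 cells, 437-fold lower than control (318 to 618). Itga2b was at 0.361 CPM, 83.3-fold lower, Vwf at 0.0901, 77.3-fold lower, Gp9 at 0.0644, 117-fold lower, and Gp1bb at 0.0515, 91.1-fold lower. Treml1 had 1 UMI, 518-fold lower with an interval of 92.7 to 20466, and Ppbp had none, which with a floor of 3 counts is at least 18.4-fold lower. Gp6 and Mpig6b had 0 UMIs. Of the 7 measured genes 6 were 2-fold lower on the log2(CPM + 1) scale, where 11.7% of all measured genes were, and none was 2-fold higher, where 12% were. Their median log2 ratio was -2.92, also with Ppbp at its bound, against -0.01 over all genes; 5 of the 7 passed the minimum of 20 UMIs only through control and had to come out lower, so the count lends no support.

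The few remaining UMIs lay mainly in a handful of megakaryocyte-like cells. The 6 such cells held 32 of the 38 Pf4 UMIs, in 2 cells, and 15 Itga2b UMIs, in 5 cells, and their CD41 median was 43. In the 6832 B-cell progenitor-like cells Pf4 had 0 UMIs, which with a floor of 3 counts allows up to 0.0395 CPM, and Itga2b was at 0.145 CPM against 1.26 in control cells of that class, which lie in other clusters (22 to 26 against 0 and 15). CD41-positive cells were 53, or 0.766% of the library, and 35 of them were B-cell progenitor-like. With CD41 taken as a share of surface counts, 42.9% of the library was positive against 66.8% of control. The threshold was then 14.02 per 10000 surface counts, and the median surface antibody count per cell was 570 against 1117. At 570 surface counts a CD41 count at the antibody background already passes it, so this share cannot tell CD41-positive cells from background there. Fewer megakaryocytes and less RNA per megakaryocyte cannot be told apart from the sum over all cells, and with 6 cells the level within the class could not be compared.

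The wider platelet program was read from 57 further genes, listed by role. In megakaryocyte-like cells labelled as Mll3-deleted, none of the 50 measured genes was 2-fold higher, where 0.432% of all measured genes were, and 3 were 2-fold lower, where 1.04% were, with a median log2 ratio of -0.13. These 3, named after their values were seen, were Mmrn1 at 9.43 against 44.1 CPM, Serpine2 at 20.3 against 59.3 and Itga2 at 3.03 against 7.38. In the Mll4-labelled library 5 of 50 were 2-fold higher, where 4.32% of all measured genes were, and 1 was 2-fold lower, where 3.16% were, with a median of 0.19 against 0.14 over all genes. Over all cells of the Mll3/4-labelled library 38 of 52 were 2-fold lower, where 11.7% of all measured genes were. Of the 52, 11 passed the minimum only through control and had to come out lower. Another 2 were 2-fold higher, where 12% of all measured genes were. These, named after their values were seen, were Mmrn1 at 106 against 7.06 CPM and Tpm4 at 228 against 12.2. Control B-cell progenitor-like cells alone had 57.1 CPM of Mmrn1 and 237 of Tpm4. That class makes up most of the Mll3/4-labelled library, so both sums mix level with cell class, and the part of each was not tested. By role, the median of the 8 adhesion receptors and integrin partners in megakaryocyte-like cells was -0.40 in the Mll3-labelled and 0.33 in the Mll4-labelled library, and that of the 10 transcription factors was -0.17 and 0.14.

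Among the genes most abundant in control megakaryocyte-like cells, those given next lay closer to control than Itga2b did in the Mll4-labelled library. The tetraspanin gene Cd9 was at 414 CPM in control, 367 in the Mll3-labelled and 472 in the Mll4-labelled library, and Fermt3, which activates integrins, at 332, 370 and 440. The granule proteoglycan gene Srgn was at 1071, 878 and 708, the cytoskeletal Tln1 at 445, 450 and 397, and Bin2 at 181, 203 and 222. Among transcription factor genes, Zfpm1, the cofactor of Gata1, was at 286, 302 and 229. Cd84 was at 54.0, 41.2 and 54.1.

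In the Mll4-labelled library the differences past 2-fold were Clec1b, an activating receptor, at 53.5 against 10.8 CPM (ratio 4.96, 3.81 to 6.42), Serpine2 at 207 against 59.3 (3.49), Itgb3 at 71.3 against 28.1 (2.54), the ADP receptor gene P2ry1 at 79.1 against 31.4 (2.52), Plek and Fcer1g; the first 4 were named after their values were seen. Rab27b, which serves granule release, was at 195 CPM against 99.1 in control, Plek, a substrate of protein kinase C, at 444 against 212, and F2r, a thrombin receptor, at 271 against 150. Rgs18, a regulator of G protein signalling, was at 579 against 361, and F2rl2 at 66.3 against 47.5. Fcer1g, the signalling chain of Gp6, was lower at 11.1 against 28.5. The other partner subunits that follow were also added after their values were seen. Itgb3, the partner of Itga2b, was at 28.1 CPM in control, 27.9 in the Mll3-labelled and 71.3 in the Mll4-labelled library, so it shared the higher level of Itga2b in the latter and not the lower level in the former. Gp5 and Gp1ba, the partners of Gp9 and Gp1bb, were at 42.5 against 71.1 and 4.65 against 8.38 CPM in the Mll3-labelled library. Gp5 in Mll4-labelled megakaryocyte-like cells was at 133 against 71.1 CPM, a ratio of 1.87 (1.61 to 2.15), opposite in direction to Gp9, and Gp1ba at 5.57 from 10 UMIs, a ratio of 0.665 (0.311 to 1.26).

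Across the 30 combinations of class and library with at least 50 cells, each gene was set beside the 16360 genes with at least 20 UMIs by Pearson's r of log2(CPM + 1). Pf4 was most like Vwf (0.947), Gm10419 (0.945) and Treml1 (0.942), and Vwf was most like Gm10419 (0.952), Pf4 (0.947) and Cavin2 (0.946). Treml1 and Gp1bb were each other's nearest gene (0.948); next came Pf4 (0.942) and 2610528J11Rik (0.934) for Treml1, and Alox12 (0.943) and Il1b (0.939) for Gp1bb. Itga2b stood aside, with Arhgap6 (0.934), Rab27b (0.929) and Gm15261 (0.917) nearest and an r of 0.697 with Pf4. Gp9 was nearest to Gp1ba (0.9003), Tek (0.889) and Treml1 (0.875). Ppbp was nearest to Gm43570 (0.978), Luzp2 (0.977) and Pls1 (0.970), and Mpig6b to 2810030D12Rik (0.986), Cxcl5 (0.964) and Gm27166 (0.941); for these sparse genes the value rests on a few UMIs. The points share libraries, and megakaryocyte-like cells dominate the range, so the values are descriptions.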

How the data were processed

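The 4 matrices of whole-number UMI counts were deposited by the authors as Cell Ranger 6.1.2 output on mm10, per the submitters' processing notes; the labels name the 10x 3' v3.1 chemistry, and the cell and read filters behind the deposited counts are not given in the sources used here. Cells with at least 500 genes and 1000 UMIs and at most 10% mitochondrial UMIs were kept, and the highest Scrublet scores were removed at 0.8% per 1000 cells. Cells were clustered in scanpy 1.11.5 (2000 variable genes without the 9 platelet genes, 30 components, 15 neighbours, Leiden resolution 1, seed 0) under python 3.11.15, with numpy 2.4.6 and scipy 1.17.1.

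Counts were summed per library and class as CPM with exact Poisson intervals. Shares have exact Clopper-Pearson intervals, and ratios exact conditional ones; scripts were tested on simulated data. UMIs count molecules, yet intervals cover counting error only, and precision follows depth, which ranged from 32777830 to 153615605 kept UMIs per library. A gene was measured with at least 20 UMIs in either library of a comparison, and its log2 ratio used a pseudocount of 1 CPM. The 3 comparisons share the control library. A level at 0 was bounded with 3 counts.

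The gene members and lists were chosen with earlier results of these data known. Besides the 9 genes and CD41, the text names from each of 7 role groups the 2 genes highest in control megakaryocyte-like cells, and for each of the 9 the 3 genes most like it. Some genes that this rule picks are not reported here. Cluster 21 was left unnamed. Alternatives were TMM scaling (edgeR 4.0.16, R 4.3.3), another pseudocount, no minimum count, other cell and doublet filters, other clusterings, another CD41 threshold and the CD41 share of surface counts; cells of 1 hashtag and single clusters were added after seeing the data. Gene positions are from GENCODE M21 on GRCm38.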

Additional observations from a re-analysis of the deposited data

How the results depend on the processing

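No paired analysis was possible because each group is 1 library with no replicate number. The median log2 ratio over all kept cells in the Mll3-labelled library, -0.18, was -0.39 in Hashtag1 and 0.078 in Hashtag2 cells; in the Mll4-labelled library, -0.53, it was -0.58 with TMM scaling, -0.74 as the mean of the cells' shares and -0.59 in Hashtag2 cells; in the Mll3/4-labelled library, -2.92, it was -5.54 with a pseudocount of 0.1 CPM, -3.12 as the mean of the cells' shares, -3.18 in Hashtag1 and -2.58 in Hashtag2 cells. In megakaryocyte-like cells, the -0.33 of the Mll3-labelled library was -0.53 in Hashtag1 and -0.021 in Hashtag2 cells, and the 0.27 of the Mll4-labelled library was -0.11 with clustering seed 1. The log2 ratio of CD41-positive shares in the Mll3-labelled library, -0.50, was -0.64 over all barcodes, -0.016 with CD41 as a share of surface counts, -0.69 in Hashtag1 and -0.27 in Hashtag2 cells. That of the Mll4-labelled library, -0.07, turned to 0.13 over all barcodes and 0.028 as a share of surface counts, so no direction can be read from it. That of the Mll3/4-labelled library, -5.51, was -0.64 as a share of surface counts (42.9% against 66.8% positive), -6.80 in Hashtag1 and -4.55 in Hashtag2 cells. The share threshold of 14.02 per 10000 surface counts is passed by background counts in that library, so its share-based value draws no conclusion. Values by hashtag set the cells against the same hashtag of control, a pairing that the labels do not give. The causes were not tested.

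Among single genes in megakaryocyte-like cells of the Mll4-labelled library, the log2 ratio of Itga2b kept its sign in 13 of 13 alternatives (1.11 to 1.67) and so did that of Gp9 (-1.34 to -1.01), while Pf4 kept it in 12 of 13 (-0.11 to 0.42), Ppbp in 12 (-0.16 to 1.11) and Treml1 in 11 (-0.17 to 0.55). In the Mll3-labelled library Pf4 kept it in 10 of 13 (-0.24 to 0.44), so its ratio of 1.04 has no firm direction, and Treml1 in 12 (-0.63 to 0.13). The lower depth of the Mll4-labelled library limits its sparse genes, Gp6, Mpig6b and Ppbp, and 1 library per group limits every comparison.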

Other observations

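The labels do not say what the 2 hashtags mark, nor that a hashtag marks the same thing in different libraries, so their values are descriptions only. In megakaryocyte-like cells, Itga2b was at 228 CPM in Hashtag1 and 208 in Hashtag2 cells of control, at 158 and 194 in the Mll3-labelled library and at 527 and 664 in the Mll4-labelled library, so the order of the 3 libraries was the same for both hashtags. The CD41 medians were 91 and 54 in control, 34 and 56.5 in the Mll3-labelled and 230 and 208 in the Mll4-labelled library, so the lower CD41 of the Mll3-labelled library was present in Hashtag1 and not in Hashtag2 cells. Pf4 in the Mll3-labelled library was at 1972 and 2819 CPM.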
